A study of Mus musculus with 28 samples.

Results

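The collagen genes described here were the 44 genes, of 29068 in the deposited count table, whose symbol reads Col, a type number, the letter a and a chain number. By type they were divided into 11 fibrillar genes (types I, II, III, V, XI, XXIV and XXVII), 9 genes of basement membranes and their anchorage (Col4a1 to Col4a6, Col7a1, Col15a1 and Col18a1) and 24 other genes. The others held 9 genes of FACIT collagens, which sit on the surface of fibrils, 6 of type VI, 4 of transmembrane collagens, 3 of short-chain network collagens, and Col26a1 and Col28a1. The RNA came from dorsal skin of C57BL/6J mice that were MLKL+/+, 8 weeks old and of both sexes, after a 6 mm punch wound down to the fascia that was left to heal naturally. The study describes taking the wound site whole, with scab and epithelial margin, on its own numbered days, a description that names no Day0 sample. The libraries were labelled Day0, Day3, Day5, Day7, Day10, Day12 and Day14, and each day had 4 libraries, 28 in all, with Day0 as the control. The series' design gives Day0 as 0 days after injury, while the study numbers its days from day 1, the day on which the wound was made, and lists no day 0. How the 2 numberings map onto each other is not given in the sources used here. All groups were wild type at Mlkl and none received an agent. The labels do not say which libraries came from separate animals, so p-values rest only on spread between libraries, which may be in part technical. In such bulk tissue, fewer cells of a type and less RNA per cell cannot be told apart.

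Collagens are trimers of alpha chains wound into a triple helix. Fibrillar collagens form the cables that carry load in dermis, with type III prominent in granulation tissue and type I in mature dermis, while types V and XI set how fibrils begin and how thick they grow. Type IV builds the sheet of basement membranes under epidermis and around vessels, type VII anchors the epidermal basement membrane to the dermis, and FACIT, type VI and transmembrane collagens link fibrils, networks and cells to each other.

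Each library held 36706513 to 40655764 counts (median 39499595), and 41 of the 44 collagen genes had enough counts to be tested. Col2a1, Col9a1 and Col10a1, genes known from cartilage, had at most 10 counts in any library and are given no fold change. Levels are FPKM, fragment counts scaled to transcript length and library size, as the authors computed them, and are per length. Fold changes and adjusted p come from edgeR's quasi-likelihood test on the counts, two-sided, with Benjamini-Hochberg adjustment over 18107 genes, and a change was called at adjusted p under 0.05. SE of a fold change is the size of the log2 fold change over the square root of that test's F. The 4 Day0 libraries fell into 2 pairs, in these genes and across the transcriptome. Their log2 CPM correlated at 0.990 within the pair of libraries 2 and 3, 0.976 within the pair 1 and 4 and 0.969 to 0.971 across pairs, against 0.988 to 0.992 among libraries of the other days, and the biological coefficient of variation was 26.5% at Day0 against 5.77% to 10.8% on other days. The fit pools the spread of all days, so SE and p do not reflect the spread of the compared days alone. With only the libraries of the 2 days fitted, Col1a1 at Day10 went from an edgeR adjusted p of 0.0441 to 0.275. Day0 libraries 1 to 4 had summed FPKM of 1700, 4180, 4060 and 1240 for 8 dermal fibroblast markers, 3070, 1700, 1760 and 3570 for 7 keratinocyte markers, and 14800, 9680, 9990 and 15500 for 6 skeletal muscle markers. The muscle sum was 2130 to 2770 at Day3 and 4670 to 5700 at Day10, its highest wound day. For 6 leukocyte markers the sum was 1020 to 1470 at Day0 and 10000 to 12200 at Day3. The part of such differences in the comparisons with Day0 was not tested. Every comparison with Day0 uses these same 4 libraries. For the genes described most, many values are also given with a pair left out, an alternative chosen after seeing the data. Values given only with all libraries can shift too. Without Day0 libraries 1 and 4, and without libraries 2 and 3, Col5a1 at Day10 was 1.80 and 2.69. Col7a1 at Day10 was then 3.645 and 2.88, and Col12a1 at Day7 4.83 and 3.885. Day7 against Day3 and Day14 against Day7 compare none of the Day0 libraries, though the Day0 spread enters the fit. In the Day5 library 4, genes with an implied length of at least 9000 bases had a median log2 deviation of -0.339 from the other Day5 libraries, and in the Day7 library 4 one of -0.133.

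More collagen genes fell than rose at Day3, more rose than fell on every later day, and the most were higher at Day10. At Day3, 11 of the 41 tested collagen genes rose against Day0 (26.8%, where 31.8% of all 18107 genes tested rose) and 21 fell (51.2%, against 34.8% of all genes). Those called higher numbered 18 at Day5 (43.9%, against 29.0% of all genes), 24 at Day7 (58.5%, against 25.6%), 30 at Day10 (73.2%, against 23.5%), 25 at Day12 (61.0%, against 21.7%) and 18 at Day14 (43.9%, against 28.2%). Those called lower numbered 10 at Day5 (24.4%, against 30.6% of all genes), 9 at Day7 (22.0%, against 24.8%), 6 at Day10 (14.6%, against 26.9%), 5 at Day12 (12.2%, against 25.6%) and 10 at Day14 (24.4%, against 34.5%). The share of collagen genes called higher at Day3 was thus near the share of all genes, and the shares at Day7, Day10 and Day12 were more than 2 times it. Without Day0 libraries 1 and 4 the higher and lower counts were 12 and 23 at Day3, 27 and 6 at Day10 and 17 and 12 at Day14, and without libraries 2 and 3 they were 14 and 17, 29 and 7, and 22 and 8. Over all 18861 genes of the former fit, 5947 rose and 6157 fell at Day3, 4642 and 4684 at Day10, and 5452 and 6167 at Day14. Over all 18807 genes of the latter they were 6034 and 5544, 3933 and 4690, and 5494 and 5066. Across the 6 wound days, with Day0 left aside, 39 of the 41 varied (95.1%, against 85.1% of all genes).

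**Figure D1:**
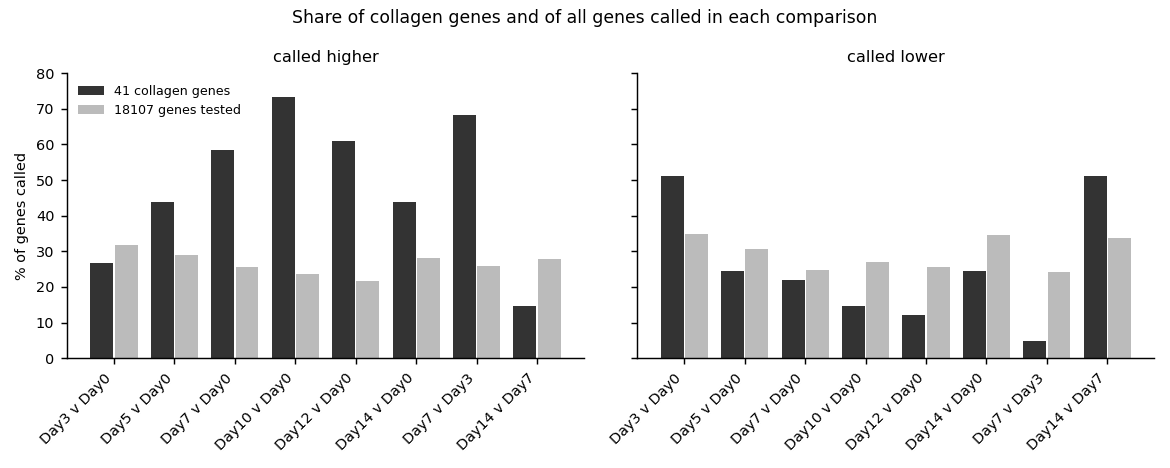
Share of genes called higher or lower at an adjusted p under 0.05 in each comparison, in percent, for the 41 tested collagen genes and for all 18107 genes tested. The collagen share called higher is close to the share of all genes at Day3, 26.8% against 31.8%, and far above it at Day10, 73.2% against 23.5%.

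The comparisons among wound days compare no Day0 library, though the Day0 spread enters the fit. From Day3 to Day7, 28 collagen genes rose (68.3%, against 25.8% of all genes) and 2 fell (4.88%, against 24.2%), the 2 being Col4a1 and Col4a2. From Day7 to Day14, 21 fell (51.2%, against 33.7%) and 6 rose (14.6%, against 27.9%), namely Col4a5, Col4a6, Col8a2, Col11a1, Col17a1 and Col28a1. Of these the Col17a1 call was lost without Day14 library 3, at 0.38 (edgeR adjusted p = 0.06). In all 28 and all 21 of these genes the FPKM of the 4 libraries of one day did not overlap those of the other, where 23.1% and 24.7% of all genes tested were called in that direction without overlap. The highest wound-day mean FPKM fell at Day10 for 24 of the 41 genes, at Day12 for 6, at Day14 for 4 and at Day3 for 3, and the lowest fell at Day3 for 22. The Day10 libraries overlapped those of Day7, the next highest day, for Col1a1, Col1a2, Col3a1, Col5a1, Col5a2 and Col24a1, among others. Day10 was not tested against Day7.

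**Figure D2:**
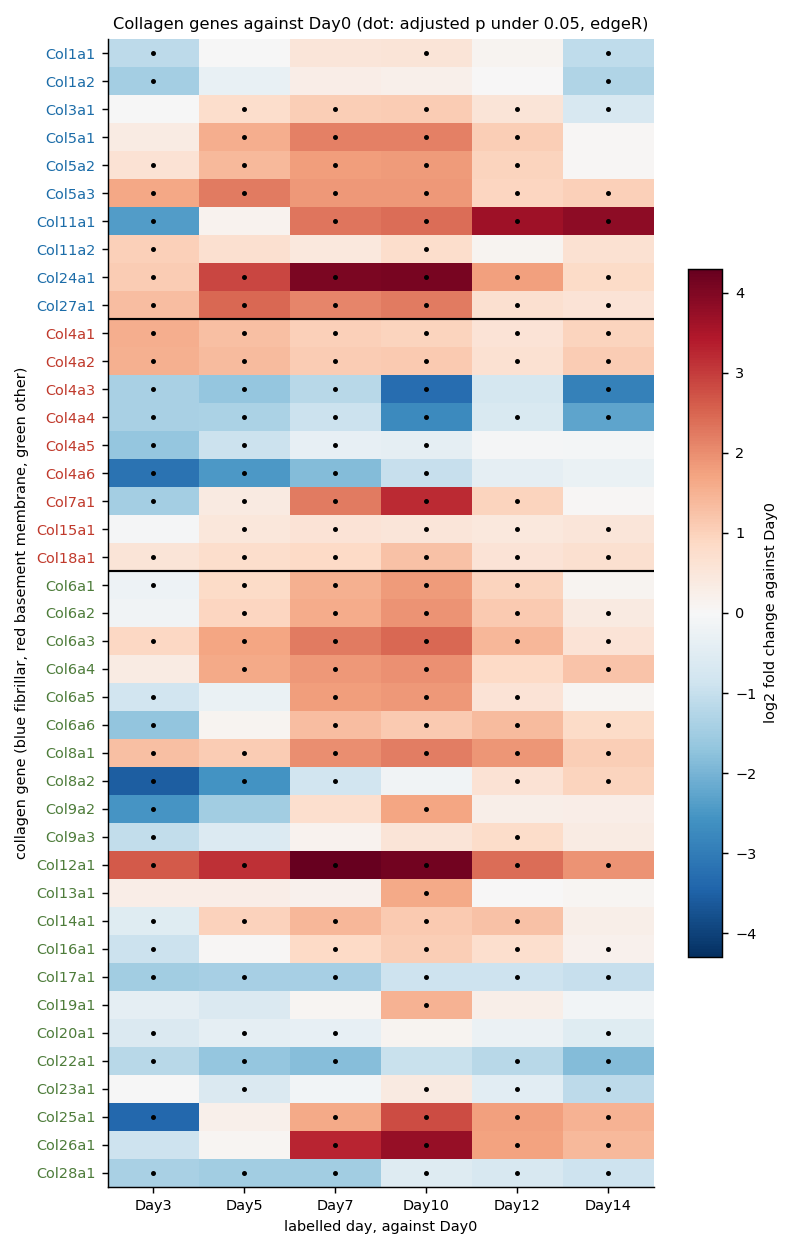
Log2 fold change against Day0 from edgeR for each of the 41 tested collagen genes (rows, grouped as fibrillar, basement membrane and other) on the 6 wound days (columns), with a dot on each change called at adjusted p under 0.05. Most fibrillar genes are higher at Day10, while Col4a1 and Col4a2 are already at 1.58 and 1.53 at Day3.

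Counts by class, read beside the 31.8% of all genes that rose and 34.8% that fell at Day3, 23.5% and 26.9% at Day10, and 28.2% and 34.5% at Day14, are descriptions, and no difference between classes was tested. Of the 10 fibrillar genes tested, 5 rose and 3 fell at Day3, 9 rose and none fell at Day10, and 4 rose and 3 fell at Day14. Of the 9 basement membrane genes, 3 rose and 5 fell at Day3, 5 rose and 4 fell at Day10, and 4 rose and 2 fell at Day14. Of the 22 others, 3 rose and 13 fell at Day3, 16 rose and 2 fell at Day10, and 10 rose and 5 fell at Day14. The median log2 fold change at Day3 was 0.48 for fibrillar, -1.39 for basement membrane and -0.72 for other genes, beside -0.03 over all genes. At Day10 these medians were 1.85, 0.52 and 1.56, beside -0.02 over all genes, and at Day14 they were 0.32, 0.04 and 0.27, beside -0.06. With Day0 libraries 1 and 4 left out, fibrillar genes had 5 higher and 4 lower at Day3, 7 and 1 at Day10 and 4 and 5 at Day14. Basement membrane genes then had 3 and 6, 4 and 4, and 4 and 2, and the others 4 and 13, 16 and 1, and 9 and 5. With libraries 2 and 3 left out, fibrillar genes had 7 and 2, 9 and 0, and 6 and 0. Basement membrane genes then had 4 and 4, 5 and 4, and 4 and 3, and the others 3 and 11, 15 and 3, and 12 and 5. Medians of the 3 classes at Day3 were 0.13, -1.03 and -0.63 without the former pair and 0.89, 0.01 and -0.56 without the latter. At Day14 they were 0.13, 0.16 and 0.20, and 0.63, -0.05 and 0.51. The Day10 basement membrane median was 0.18 and 0.98. The basement membrane genes were split, with Col4a1, Col4a2 and Col18a1 called higher on all 6 days and Col4a3 and Col4a4 lower at Day10 and Day14, so that their median describes no single gene.

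Summed over all 44 genes, FPKM was 4612, 9401, 9075 and 2826 in the 4 Day0 libraries, and averaged 4203 at Day3, 7688 at Day5, 10810 at Day7, 11400 at Day10, 8777 at Day12 and 4071 at Day14. As a share of all counts, the collagens took 1.61% to 5.27% at Day0, 2.46% at Day3, 6.61% at Day10 and 2.36% at Day14. Day3 and Day14 lay within the Day0 range and Day7 and Day10 above it. Fibrillar genes made up 82.0% ± 0.353 (SD, n = 4) of the summed collagen FPKM at Day3, 87.7% at Day7, 86.1% at Day10 and 79.5% ± 0.439 at Day14, against 79.6% to 93.6% at Day0. The basement membrane share was 10.4% ± 0.415 at Day3 and 9.47% ± 0.326 at Day14, above the 4.37%, 2.24%, 2.22% and 6.21% of the 4 Day0 libraries, and 3.5% to 5.27% in the days between. In absolute FPKM the basement membrane sum was 197 ± 15.1 at Day0 and 437 at Day3, and then ranged only from 320 at Day12 to 412 at Day10 while the fibrillar sum averaged 3447 at Day3, 9813 at Day10 and 3238 at Day14. Counting the transmembrane gene Col17a1, whose product sits in hemidesmosomes at the epidermal basement membrane, with this class gave 11.3% at Day3, 11% at Day14 and 3.06% to 12.3% at Day0, so that both days then overlapped Day0.

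**Figure D3:**
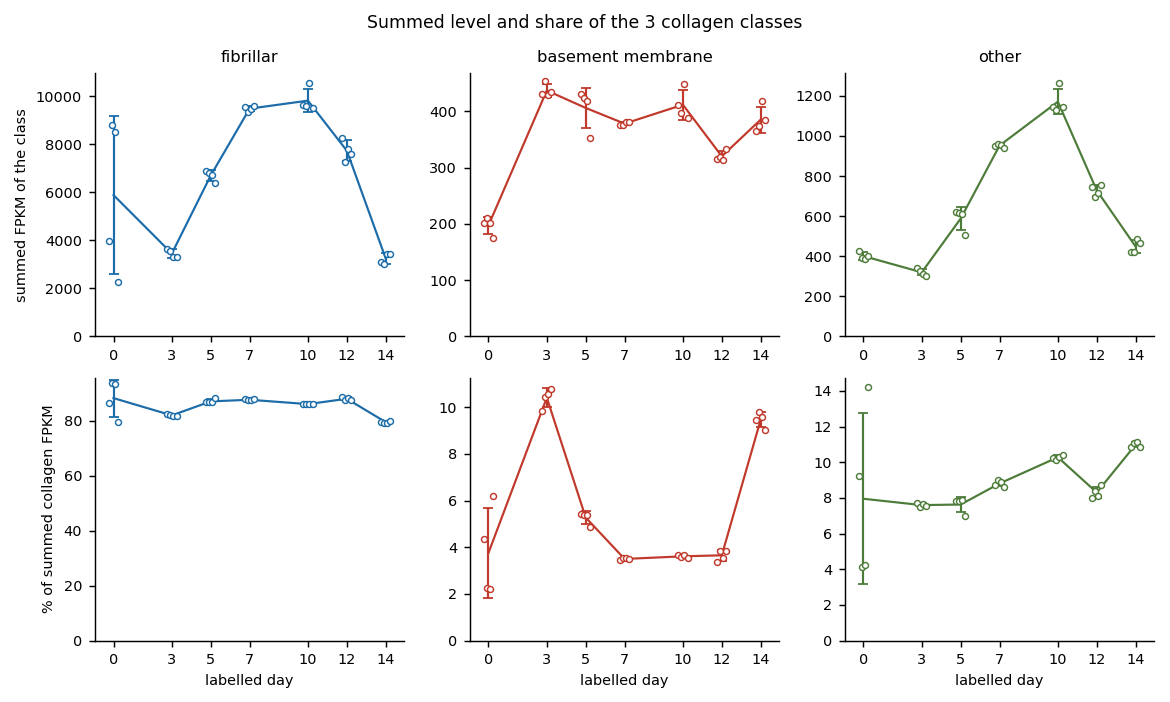
Summed FPKM (top) and percent of the summed collagen FPKM (bottom) of the fibrillar, basement membrane and other collagen genes by labelled day, with points for the 4 libraries, a line through the day means and bars of 1 SD. Day0 libraries spread widely in the fibrillar sum, from 2249 to 8801 FPKM, while the basement membrane sum lies between 175.5 and 210.5 FPKM at Day0 and rises to 437 at Day3.

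Col1a1 and Col1a2, which encode the alpha chains of type I collagen, the main fibril of dermis, followed nearly the same course. Col1a1 measured 1240, 2742, 2686 and 677 FPKM in the Day0 libraries, 872, 859, 776 and 762 at Day3 and 1807, 1807, 1774 and 1683 at Day5. It stood at 2656, 2585, 2662 and 2700 at Day7, 2671, 2720, 3116 and 2719 at Day10, 2411, 2077, 2208 and 2134 at Day12 and 868, 849, 1046 and 961 at Day14. Libraries within a wound day lay close together, Day3 and Day14 were low and Day7 and Day10 high, and on every wound day some library overlapped the wide Day0 range. From Day3 to Day7 Col1a1 rose without overlap (log2 fold change 1.64, SE 0.24, edgeR adjusted p = 1.51e-06), and from Day7 to Day14 it fell without overlap (log2 fold change -1.63, SE 0.24, edgeR adjusted p = 9.84e-07). Against Day0 it fell at Day3 (log2 fold change -1.11, SE 0.23, edgeR adjusted p = 0.000139) and at Day14 (log2 fold change -1.10, SE 0.23, edgeR adjusted p = 0.000165), and both calls were lost without Day0 libraries 2 and 3, at -0.13 (edgeR adjusted p = 0.395) and -0.10 (edgeR adjusted p = 0.554). Its rise at Day10 (log2 fold change 0.56, SE 0.23, edgeR adjusted p = 0.0441) was lost without Day0 libraries 1 and 4, at 0.00 (edgeR adjusted p = 0.99), and also on leaving out any 1 of 6 single libraries, namely Day0 library 1 (0.42) or 4 (0.29) or any Day10 library (0.49 to 0.59).

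Col1a2 was measured at 1366, 3310, 3192 and 749.6 FPKM at Day0, 818, 782, 728 and 702 at Day3 and 1693, 1705, 1676 and 1574 at Day5. Later days gave 2642, 2538, 2604 and 2703 at Day7, 2555, 2573, 2827 and 2556 at Day10, 2585, 2257, 2453 and 2300 at Day12 and 907, 888, 1010 and 993 at Day14. The highest libraries of the whole series were Day0 libraries 2 and 3, and the lowest were those of Day3 and Day0 library 4. Col1a2 rose from Day3 to Day7 (log2 fold change 1.73, SE 0.25, edgeR adjusted p = 1.32e-06) and fell from Day7 to Day14 (log2 fold change -1.59, SE 0.25, edgeR adjusted p = 2.89e-06). Against Day0, the fall at Day3 was -1.45 (SE 0.24, edgeR adjusted p = 8.39e-06) and was still called without either pair, at -2.04 without Day0 libraries 1 and 4 and -0.38 without libraries 2 and 3. The fall at Day14 was -1.31 (SE 0.24, edgeR adjusted p = 3.73e-05) and was lost without libraries 2 and 3, at -0.21 (edgeR adjusted p = 0.149). At Day10 the Col1a2 difference from Day0, 0.23 (SE 0.24, edgeR adjusted p = 0.439), passed the test downward without libraries 1 and 4, at -0.35, and upward without libraries 2 and 3, at 1.25.

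Col3a1, the single chain of type III collagen, lay inside the Day0 range at Day3 and above it from Day5 to Day12. Its FPKM was 1265, 2586, 2454 and 748 at Day0, 1726, 1725, 1622 and 1620 at Day3 and 3003, 2918, 2881 and 2765 at Day5. It reached 3770, 3713, 3694 and 3662 at Day7 and 3870, 3794, 4041 and 3725 at Day10, then 2984, 2654, 2845 and 2846 at Day12 and 1139, 1115, 1209 and 1272 at Day14. Every library from Day5 to Day12 thus exceeded all Day0 libraries, and those of Day14 were back inside their range. Col3a1 rose at Day7 (log2 fold change 1.07, SE 0.20, edgeR adjusted p = 6.84e-05) and Day10 (log2 fold change 1.08, SE 0.20, edgeR adjusted p = 6.37e-05), rises that were 0.56 and 0.57 without Day0 libraries 1 and 4 and 1.87 and 1.88 without libraries 2 and 3, all still called. Its difference at Day3 was -0.02 (SE 0.20, edgeR adjusted p = 0.942). It became -0.53 without Day0 libraries 1 and 4 and 0.83 without libraries 2 and 3, each passing the test. The fall from Day7 to Day14 was -1.77 (SE 0.21, edgeR adjusted p = 2.62e-08). Calls at Day12 (log2 fold change 0.54, SE 0.20, edgeR adjusted p = 0.0277) and Day14 (log2 fold change -0.70, SE 0.20, edgeR adjusted p = 0.00354) were not stable, the former giving 0.03 (edgeR adjusted p = 0.703) without Day0 libraries 1 and 4, 0.43, 0.31 and 0.50 without Day0 library 1, Day0 library 4 or Day12 library 1 alone (edgeR adjusted p = 0.0833, 0.0501 and 0.0635), and the latter 0.18 (edgeR adjusted p = 0.168) without libraries 2 and 3 and -0.41 (edgeR adjusted p = 0.0619) without library 2.

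The ratio of Col3a1 to Col1a1, formed within each library, was above Day0 on every wound day. It was 1.02, 0.943, 0.913 and 1.11 in the Day0 libraries and 1.98, 2.01, 2.09 and 2.13 at Day3. It was then 1.66, 1.61, 1.62 and 1.64 at Day5, 1.42, 1.44, 1.39 and 1.36 at Day7, 1.45, 1.39, 1.30 and 1.37 at Day10, 1.24, 1.28, 1.29 and 1.33 at Day12 and 1.31, 1.31, 1.16 and 1.32 at Day14. No library of any wound day overlapped Day0, Day3 was the highest and the days from Day10 on lay close together. The Day3 difference was 1.05 on the log2 scale (SE 0.066), and on each of the 6 days the two-sided exact permutation test of 4 against 4 libraries gave p = 0.0286, the smallest it allows (0.0411 after Benjamini-Hochberg adjustment over the 36 ratio tests).

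**Figure D4:**
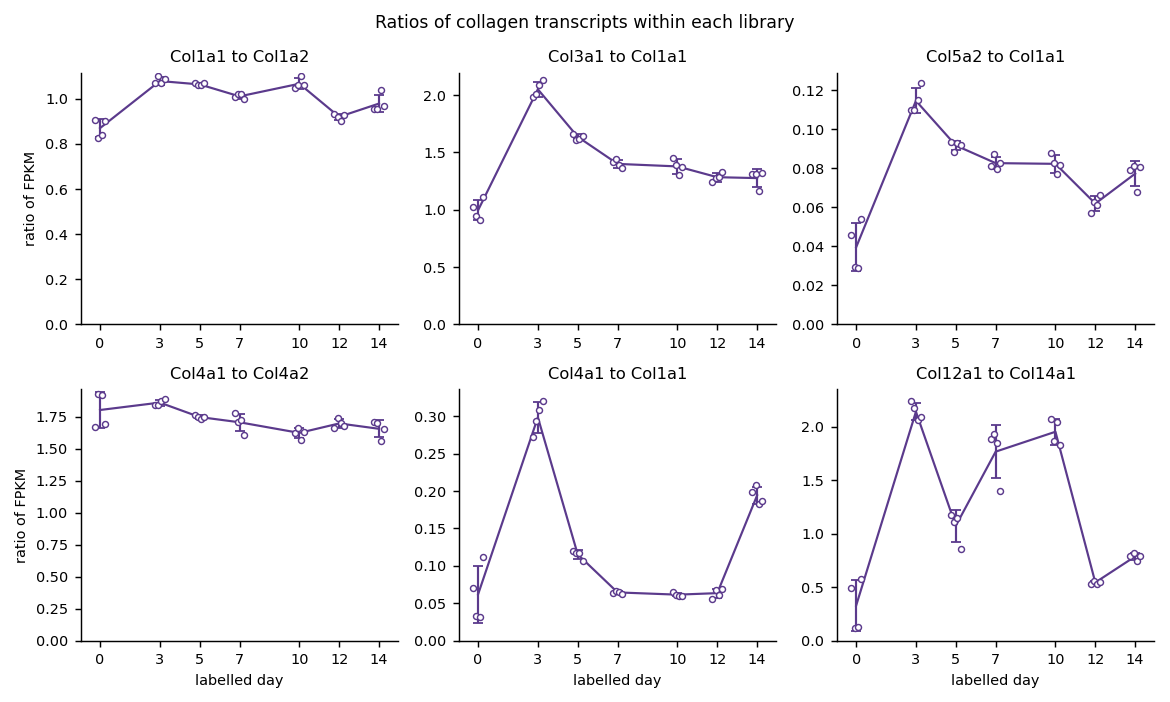
FPKM ratios of 6 pairs of collagen genes by labelled day, with points for the 4 libraries, a line through the day means and bars of 1 SD. The Col3a1 to Col1a1 ratio rises from 0.996 at Day0 to 2.05 at Day3 and returns to 1.28 at Day14, still above every Day0 library.

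The ratio of the type I partners moved far less than that of type III to type I. Col1a1 to Col1a2 was 0.870 ± 0.0411 (SD, n = 4) at Day0, 1.08 at Day3, 1.06 at Day5, 1.01 at Day7, 1.07 at Day10, 0.920 at Day12 and 0.979 at Day14. It was above Day0 without overlap on 5 of the 6 days (exact permutation p = 0.0286, adjusted p = 0.0411), Day12 being the exception (exact permutation p = 0.0857, adjusted p = 0.114). These differences were at most 0.31 on the log2 scale.

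Type V collagen, which is built into type I fibrils and limits their width, rose further than type I. Col5a1 had 40.6, 63.6, 60.4 and 25.4 FPKM at Day0, 58.5, 61.9, 54.6 and 56.6 at Day3, 145, 138, 139.5 and 123 at Day5 and 213, 214, 208 and 217 at Day7. It had 219, 214, 245 and 210.0 at Day10, 113, 103, 108 and 111 at Day12 and 50.5, 49.6, 58.9 and 56.6 at Day14. Day3 and Day14 overlapped Day0, and all libraries from Day5 to Day12 lay above it. The rise was 2.16 (SE 0.16, edgeR adjusted p = 7.25e-12) at Day7 and 2.17 (SE 0.16, edgeR adjusted p = 1.01e-11) at Day10, and the fall from Day7 to Day14 was -2.11 (SE 0.16, edgeR adjusted p = 7.9e-12). At Day3 its log2 fold change of 0.34 (edgeR adjusted p = 0.0527) was -0.04 without Day0 libraries 1 and 4 and 0.91 without libraries 2 and 3, the latter called (edgeR adjusted p = 6.67e-08). It was also called by DESeq2 (0.35, adjusted p = 0.0297) and without Day3 library 1, 3 or 4 alone (edgeR adjusted p = 0.0428, 0.0315 and 0.0402).

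Col5a2, its partner chain, measured 56.5, 81.2, 77.7 and 36.6 FPKM at Day0, 95.8, 94.8, 89.3 and 94.2 at Day3 and 169, 160.0, 165 and 155 at Day5. The next days gave 216, 225, 213 and 223 at Day7, 235, 225, 240.1 and 222 at Day10, 138, 130.4, 135 and 142 at Day12 and 68.9, 69.2, 70.8 and 77.5 at Day14. Unlike Col5a1 it was above every Day0 library already at Day3 (log2 fold change 0.63, SE 0.13, edgeR adjusted p = 0.000139, or 0.30 without Day0 libraries 1 and 4 and 1.11 without libraries 2 and 3, both called), and it was highest at Day10 (log2 fold change 1.82, SE 0.13, edgeR adjusted p = 9.82e-12). The ratio of Col5a2 to Col1a1 averaged 0.0395 at Day0 and 0.115 at Day3 and stayed above every Day0 library on all 6 days (exact permutation p = 0.0286, adjusted p = 0.0411). Col5a3, another chain of type V, came earlier still, with means of 14.8 FPKM at Day0, 44.8 at Day3 and 67.4 at Day5, its highest day (log2 fold change 2.23, SE 0.10, edgeR adjusted p = 1.37e-16).

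Among the less abundant fibrillar genes, Col24a1, a fibrillar collagen known from developing bone, had the largest rise of the class. It was at 0.127, 0.171, 0.0797 and 0.249 FPKM at Day0, 0.288, 0.308, 0.334 and 0.338 at Day3 and 1.15, 1.18, 1.2 and 0.919 at Day5. It climbed to 2.74, 2.89, 2.36 and 2.45 at Day7 and 2.77, 2.79, 2.73 and 2.77 at Day10 and was down to 0.491, 0.485, 0.696 and 0.672 at Day12 and 0.265, 0.300, 0.254 and 0.394 at Day14. Every wound-day library lay above all Day0 libraries, at levels that never passed 3 FPKM. The rise at Day10 was 4.09 (SE 0.20, edgeR adjusted p = 1.49e-15) and the fall from Day7 to Day14 was -3.23 (SE 0.18, edgeR adjusted p = 1.6e-14). Col27a1, a fibrillar collagen of cartilage and other tissues, was highest at Day5 (5.31 FPKM, against 0.998 at Day0; log2 fold change 2.45, SE 0.08, edgeR adjusted p = 3.73e-19).

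Col11a1, a chain of type XI collagen, was still climbing when types I, III and V fell. Its FPKM was 1.47, 0.729, 0.545 and 0.744 at Day0, 0.183, 0.158, 0.141 and 0.154 at Day3 and 1.03, 0.883, 0.966 and 0.913 at Day5. It was 4.48, 4.28, 4.16 and 4.41 at Day7, 4.95, 4.85, 4.92 and 4.26 at Day10, 12.0, 11.9, 11.4 and 12.9 at Day12 and 13.4, 13.0, 14.3 and 14.5 at Day14. All Day3 libraries lay below Day0, Day5 overlapped it, and from Day7 on all lay above it, with Day14 the highest. Col11a1 fell at Day3 (log2 fold change -2.40, SE 0.21, edgeR adjusted p = 5.6e-11), rose by Day14 (log2 fold change 3.85, SE 0.17, edgeR adjusted p = 1.34e-16) and was the 1 fibrillar gene that rose from Day7 to Day14 (log2 fold change 1.55, SE 0.15, edgeR adjusted p = 5.33e-10). Col11a2, its partner in cartilage, stayed at means of 0.0783 to 0.153 FPKM, and Col2a1, with which both assemble in cartilage, at 0.0225 or less. Among 7 cartilage markers, Acan (aggrecan, the main cartilage proteoglycan) rose most, by a log2 fold change of 4.86 (SE 0.39, edgeR adjusted p = 1.85e-11) at Day14, where 2 of the 6 tested markers rose and 2 fell, with a summed FPKM of 10.9 to 12.6 against 5.88 to 7.87 at Day0. The Acan rise was 7.85 without Day0 libraries 1 and 4 and 4.00 without libraries 2 and 3. Of all genes, 31.8% rose and 34.8% fell at Day3, 29.0% and 30.6% at Day5, 25.6% and 24.8% at Day7, 23.5% and 26.9% at Day10, 21.7% and 25.6% at Day12 and 28.2% and 34.5% at Day14. All 7 hair follicle markers fell at Day3, when Col11a1 fell, and all 7 rose at Day12 and Day14. Between them, none rose and 6 fell at Day5, when Col11a1 differed from Day0 by 0.16 (edgeR adjusted p = 0.43). That Col11a1 value was 0.62 without Day0 libraries 1 and 4 and 0.55 without library 1 alone, both called. Of the 7 markers, 2 rose and 1 fell at Day7 and 2 rose and 3 fell at Day10, when Col11a1 was already up by 2.31 and 2.39. Leaving out Day0 libraries 1 and 4, the Day7 and Day10 counts were 5 and 1, and 4 and 3, and without libraries 2 and 3 they were 1 and 3, and 2 and 3. At Day12 and Day14 their summed FPKM was 1380 to 1830 and 1460 to 1900 against 91.8 to 529 at Day0. The part of either cell type in the Col11a1 result was not tested.

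**Figure D5:**
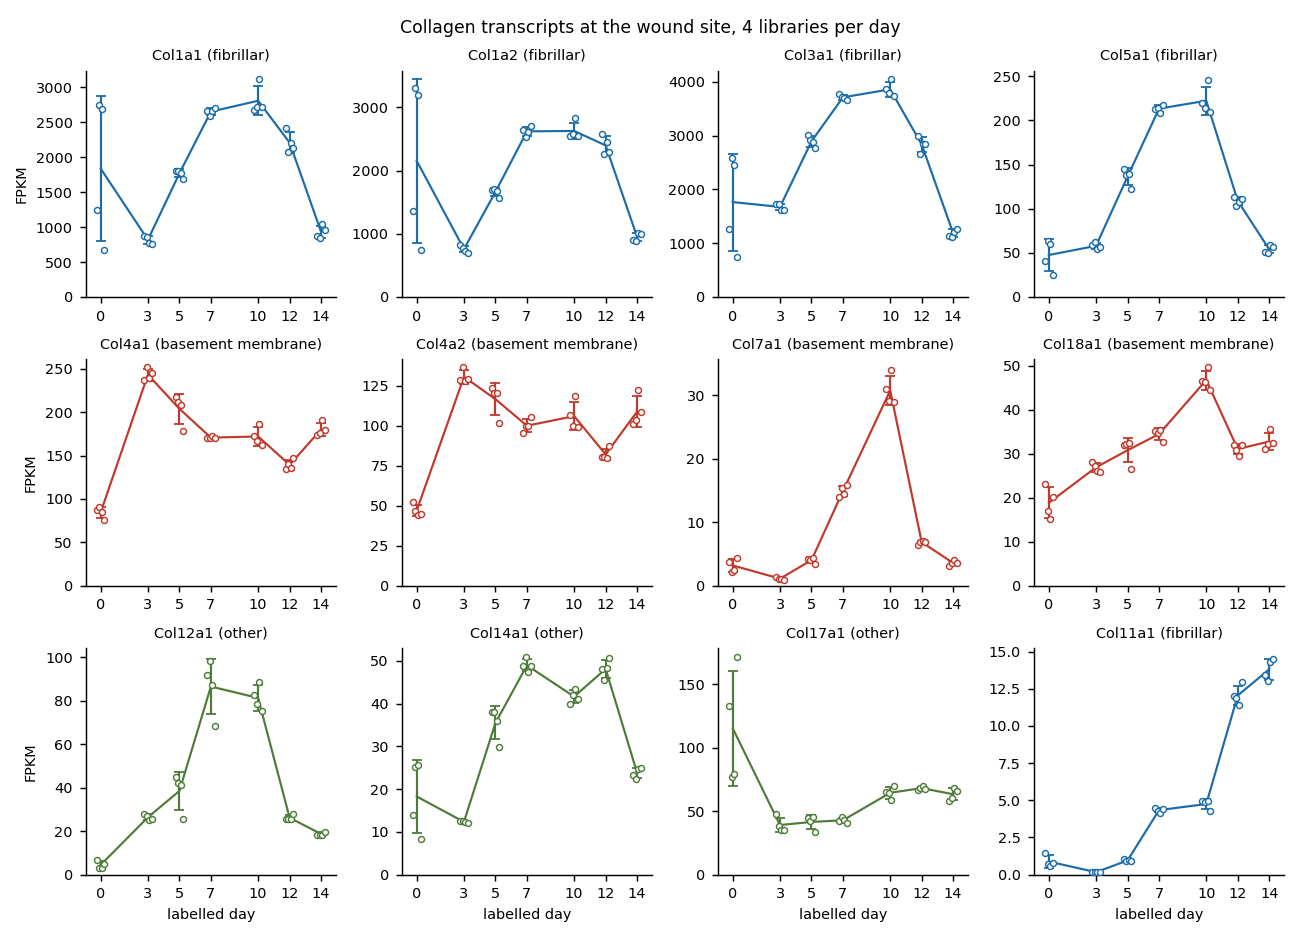
FPKM by labelled day of 12 collagen genes, 1 panel a gene, with points for the 4 libraries, a line through the day means and bars of 1 SD. Col1a1 and Col3a1 are highest at Day7 and Day10, whose libraries overlap, and fall by Day14. Col4a1 is highest at Day3, and Col11a1 climbs to 13.8 FPKM at Day14.

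In the basement membrane class, Col4a1 and Col4a2, the chains of the type IV network found in nearly all basement membranes and abundant around vessels, were highest at the first wound day. Col4a1 stood at 87.7, 90.1, 85.0 and 75.7 FPKM at Day0, 237, 252, 239 and 245 at Day3 and 217, 212, 208 and 178 at Day5. It then measured 169.9, 170.5, 172 and 169.9 at Day7, 173, 167, 186 and 162 at Day10, 134, 140.5, 136 and 147 at Day12 and 173, 176, 191 and 179 at Day14. The Day0 libraries lay close together here, all wound-day libraries lay above them, and Day3 lay above all later days. Col4a1 rose at Day3 (log2 fold change 1.58, SE 0.07, edgeR adjusted p = 1.74e-17), fell from Day3 to Day7 (log2 fold change -0.57, SE 0.07, edgeR adjusted p = 3.34e-08) and was still up at Day14 (log2 fold change 0.96, SE 0.07, edgeR adjusted p = 8.73e-13). From Day7 to Day14 its fitted change was -0.04 (SE 0.07, edgeR adjusted p = 0.571), although each Day14 library had a higher FPKM than each Day7 library. The fit used counts with TMM scaling in place of FPKM.

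Col4a2 gave 52.4, 46.7, 44.3 and 44.9 FPKM at Day0, 128, 137, 128 and 129.6 at Day3 and 124, 121, 121 and 102 at Day5. On later days it gave 95.6, 99.8, 99.8 and 105 at Day7, 106, 100.2, 118 and 99.3 at Day10, 80.7, 80.6, 79.8 and 87.5 at Day12 and 101, 104, 122 and 109 at Day14. It kept the same order of days as Col4a1 at the top, with Day3 first and Day5 next. Its rise at Day3 was 1.53 (SE 0.08, edgeR adjusted p = 7.4e-16) and its fall from Day3 to Day7 was -0.44 (SE 0.08, edgeR adjusted p = 1.8e-05). The ratio of Col4a1 to Col4a2 averaged 1.80 at Day0 and was below every Day0 library on Day10 only, at 1.62 (exact permutation p = 0.0286, adjusted p = 0.0411). At Day3, 4 of 6 endothelial markers rose and 1 fell, with a summed FPKM of 211 to 227 against 123 to 168 at Day0, Cdh5 (VE-cadherin) rising most at 1.23 (SE 0.11, edgeR adjusted p = 1.46e-10). By Day14 none of the 6 rose and 3 fell, at a sum of 116 to 132, while Col4a1 and Col4a2 were still above Day0. Of all genes, 31.8% rose and 34.8% fell at Day3 and 28.2% and 34.5% at Day14. Without Day0 libraries 1 and 4 these counts were 4 and 2 at Day3 and 0 and 4 at Day14, and without libraries 2 and 3 they were 5 and 0, and 2 and 3. How far endothelial RNA set either gene was not tested.

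The genes of these chains lie head to head in pairs on the mouse genome (GRCm38.p6). Col4a1 on the minus strand and Col4a2 on the plus strand of chromosome 8 have annotated start sites 21 bases apart, so that their annotated first exons overlap by 22 bases at chr8:11312805-11312826, which is shown because both genes of the pair begin in it. It is printed in lower case throughout, with no motif marked, and reads on the plus strand:
Col4a1 and Col4a2 shared start: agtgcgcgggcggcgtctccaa
Whether counting used strand is not given in the sources used here, and without it reads from such an overlap cannot be assigned to one gene. Col4a3 and Col4a4 start 72 bases apart on chromosome 1, and Col4a5 and Col4a6 start 1309 bases apart on chromosome X. Col3a1, Col4a2, Col4a3, Col5a1, Col7a1 and Col15a1 share exon bases with other annotated genes as well. So do Col6a4, Col6a6, Col9a3, Col10a1, Col20a1 and Col22a1. Fold changes of the partners differed by at most 0.149 on the log2 scale on any day in the first pair, 0.657 in the second and 1.55 in the third. At Day3 they were 1.58 and 1.53, -1.40 and -1.39, and -1.65 and -3.17, and at Day10 they were 0.97 and 1.12, -3.28 and -2.74, and -0.40 and -0.97.

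Col4a3, of the network of specialised basement membranes such as that of the kidney glomerulus, had the largest fall of the class with all Day0 libraries in the fit. It was at 0.679, 2.28, 2.44 and 0.456 FPKM at Day0, 0.647, 0.566, 0.561 and 0.369 at Day3 and 0.428, 0.495, 0.514 and 0.346 at Day5. It was at 0.655, 0.649, 0.472 and 0.776 at Day7, 0.167, 0.178, 0.149 and 0.133 at Day10, 0.947, 0.951, 1.00 and 0.976 at Day12 and 0.241, 0.204, 0.172 and 0.232 at Day14. Day0 libraries 2 and 3 were several times libraries 1 and 4, and only Day10 and Day14 lay below all 4. Col4a3 fell at Day10 (log2 fold change -3.28, SE 0.36, edgeR adjusted p = 1.37e-08) and Day14 (log2 fold change -2.91, SE 0.35, edgeR adjusted p = 3.38e-08), and from Day7 to Day14 (log2 fold change -1.71, SE 0.34, edgeR adjusted p = 0.000105). The Day10 and Day14 falls shrank to -1.91 and -1.48 without Day0 libraries 2 and 3, still called but smaller than that of Col4a6 at Day3, -3.46 in the same fit. Its calls at Day3, Day5 and Day7 (-1.40, -1.68 and -1.20) were lost without Day0 libraries 2 and 3, at 0.01, -0.30 and 0.16. At Day12 its value of -0.74 (edgeR adjusted p = 0.0505) became 0.64 (edgeR adjusted p = 0.00954) without that pair and -1.42 without the other, which was also called. Col4a4 followed it, with -2.74 (SE 0.26, edgeR adjusted p = 9.29e-10) at Day10 and -2.26 (SE 0.25, edgeR adjusted p = 8.62e-09) at Day14, which shrank to -1.81 and -1.25 without that pair, and its calls at Day7 and Day12 were lost there (0.02 and 0.28).

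Col4a5 and Col4a6, the X-linked chains found in epidermal basement membrane, fell at Day3 and were higher again by Day14. Col4a6 had a mean of 2.05 FPKM at Day0, 0.218 at Day3 and 1.84 at Day14, with -3.17 (SE 0.21, edgeR adjusted p = 3.13e-13) at Day3 and 1.57 (SE 0.19, edgeR adjusted p = 7.55e-08) from Day7 to Day14. Col4a5 had means of 2.54, 0.776 and 2.59 FPKM on those days, with -1.65 (SE 0.09, edgeR adjusted p = 1.44e-15) at Day3. Neither passed the test against Day0 at Day12 or Day14 with all libraries, but without Day0 libraries 2 and 3 Col4a6 was called lower on both days, at -0.71 and -0.54 (edgeR adjusted p = 0.00122 and 0.00871).

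Col7a1, the gene of anchoring fibrils, had the largest rise of the class. Its libraries gave 3.69, 2.23, 2.52 and 4.33 FPKM at Day0, 1.33, 1.12, 1.02 and 0.981 at Day3 and 4.23, 4.08, 4.41 and 3.39 at Day5. They gave 14.0, 15.4, 14.5 and 15.8 at Day7, 30.9, 29.1, 34.0 and 28.9 at Day10, 6.48, 6.93, 7.09 and 6.91 at Day12 and 3.10, 3.62, 3.98 and 3.63 at Day14. Day3 lay below all Day0 libraries, Day7 to Day12 above them, and Day14 among them. Col7a1 fell at Day3 (log2 fold change -1.46, SE 0.14, edgeR adjusted p = 7.12e-10), rose from Day3 to Day7 (log2 fold change 3.68, SE 0.15, edgeR adjusted p = 2.94e-17) and stood highest at Day10 (log2 fold change 3.21, SE 0.14, edgeR adjusted p = 3.06e-16). It fell from Day7 to Day14 (log2 fold change -2.18, SE 0.14, edgeR adjusted p = 1.86e-13), and its difference from Day0 at Day14 was 0.04 (SE 0.14, edgeR adjusted p = 0.806), or 0.47 without Day0 libraries 1 and 4 (edgeR adjusted p = 0.000216) and -0.21 without libraries 2 and 3 (edgeR adjusted p = 0.0766). At Day10, none of 7 keratinocyte markers rose and 5 fell, with a summed FPKM of 2130 to 2530 inside the Day0 range of 1700 to 3570, where of all genes 23.5% rose and 26.9% fell, and without Day0 libraries 1 and 4 the counts were 2 and 3. Their part in the Col7a1 result was not tested. The smaller call at Day5, 0.38 (SE 0.14, edgeR adjusted p = 0.0189), was lost without Day0 libraries 2 and 3 (0.05), library 2 (0.23) or library 3 (0.27).

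Col15a1 and Col18a1 encode the multiplexins, which lie in vascular and epithelial basement membranes. Col15a1 gave 28, 45, 44.5 and 23.2 FPKM at Day0, 33.5, 34.0, 32.4 and 31.2 at Day3 and 50.2, 51.5, 49.0 and 39.6 at Day5. It gave 55.9, 51.5, 54.6 and 52.2 at Day7, 50.7, 51.3, 56.8 and 50.6 at Day10, 55.1, 53.3, 53.5 and 52.5 at Day12 and 51.4, 52.0, 59.3 and 55.3 at Day14. From Day7 on it was above all Day0 libraries and nearly level from day to day. It rose at Day7 (log2 fold change 0.60, SE 0.13, edgeR adjusted p = 0.00035). That rise was 0.26 without Day0 libraries 1 and 4 and 1.06 without libraries 2 and 3, both called. The call was lost with only the libraries of the 2 days in the fit, at 0.57 (edgeR adjusted p = 0.0545). Its calls at Day5, Day10, Day12 and Day14 (0.46 to 0.52) were lost without Day0 libraries 1 and 4, at 0.12 to 0.18.

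Col18a1, whose C-terminal piece is endostatin, measured 23.1, 17.0, 15.1 and 20.2 FPKM at Day0, 28.2, 27.3, 26.2 and 25.9 at Day3 and 32.0, 32.2, 32.4 and 26.6 at Day5. Thereafter it measured 35.2, 34.7, 35.4 and 32.6 at Day7, 46.6, 46.2, 49.7 and 44.5 at Day10, 31.9, 30.8, 29.5 and 32.1 at Day12 and 31.0, 32.1, 35.7 and 32.3 at Day14. It was above all Day0 libraries on every wound day and highest at Day10 (log2 fold change 1.26, SE 0.09, edgeR adjusted p = 6.73e-12), and its change from Day7 to Day14 was -0.19 (SE 0.09, edgeR adjusted p = 0.0622). It was called lower without Day14 library 3 (-0.26, edgeR adjusted p = 0.0208), without Day0 libraries 1 and 4 (edgeR adjusted p = 0.00684) and with at least 10 counts in every library (edgeR adjusted p = 0.0484).

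Relative to type I, Col4a1 stood out at both ends of the course. The ratio of Col4a1 to Col1a1 was 0.0707, 0.0329, 0.0316 and 0.112 at Day0, 0.272, 0.293, 0.308 and 0.321 at Day3 and 0.199, 0.208, 0.183 and 0.186 at Day14. Day3 and Day14 lay above every Day0 library (exact permutation p = 0.0286, adjusted p = 0.0411). At Day5 it averaged 0.115 (exact permutation p = 0.0571, adjusted p = 0.0791), and at Day7, Day10 and Day12 it averaged 0.0644, 0.0614 and 0.0634, inside the Day0 range.

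Of the other collagens, type VI, whose beaded microfibrils link cells to the surrounding matrix, held the most RNA, with a summed FPKM that averaged 225 at Day0, 216 at Day3, 908 at Day10 and 298 at Day14. Col6a3, its largest chain, was measured at 31.4, 31.7, 31.1 and 24.1 FPKM at Day0, 54.3, 54.7, 51.4 and 51.5 at Day3 and 108, 104, 101 and 63.6 at Day5. Its later values were 144, 149, 145 and 116 at Day7, 168, 162, 185 and 164 at Day10, 89.0, 82.4, 84.9 and 95.1 at Day12 and 46.6, 47.4, 50.9 and 50.2 at Day14. Every wound-day library lay above Day0, and the Day5 and Day7 library 4, short of reads on long genes, were low. Col6a3 rose already at Day3 (log2 fold change 0.90, SE 0.11, edgeR adjusted p = 1.07e-07), when Col6a2 had -0.16 (SE 0.08, edgeR adjusted p = 0.0923) and Col6a1 -0.22 (SE 0.09, edgeR adjusted p = 0.0312). Col6a2 was called lower without Day0 libraries 1 and 4, at -0.28 (edgeR adjusted p = 0.00136), or without library 4 alone. That Col6a1 call was lost without Day0 libraries 2 and 3, at -0.01 (edgeR adjusted p = 0.899), and without any 1 of 7 single libraries (Day0 library 1, 2 or 3 or any of Day3), at -0.18 to -0.14. At Day10 Col6a3, Col6a1 and Col6a2 had risen by 2.47, 1.82 and 1.95. Col6a5 and Col6a6, the alternative chains, fell at Day3 by log2 fold changes of -0.81 and -1.68 (-0.54 and -0.52 without Day0 libraries 2 and 3, still called) and rose from Day3 to Day7 by 2.60 and 3.01 (edgeR adjusted p = 4.94e-14 and 1.15e-09). Col6a4 stayed under 0.2 FPKM in its day means.

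The FACIT pair Col12a1 and Col14a1, whose products decorate type I fibrils, took different courses. Col12a1 had 6.84, 2.93, 3.15 and 4.79 FPKM at Day0, 27.8, 27.1, 25.1 and 25.3 at Day3 and 44.7, 42.2, 41.3 and 25.6 at Day5. It had 91.7, 98.3, 87.4 and 68.5 at Day7, 82.5, 78.5, 88.7 and 75.2 at Day10, 25.4, 25.5, 25.7 and 27.8 at Day12 and 18.4, 18.1, 18.4 and 19.7 at Day14. All wound-day libraries lay several times above Day0, with library 4 low at Day5 and Day7. At Day7 its log2 fold change was the largest of the class among genes with a mean of at least 1 FPKM on some day (4.28 (SE 0.20, edgeR adjusted p = 8.01e-16)), following 2.63 (SE 0.19, edgeR adjusted p = 1.17e-12) at Day3. It fell from Day7 to Day14 (log2 fold change -2.34, SE 0.18, edgeR adjusted p = 1.62e-11) and was still above Day0 at Day14 (log2 fold change 1.95, SE 0.18, edgeR adjusted p = 4.8e-10).

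Col14a1 had 13.9, 25.1, 25.7 and 8.32 FPKM at Day0, 12.4, 12.5, 12.2 and 12.1 at Day3 and 38.1, 38.1, 35.8 and 29.9 at Day5. The following days had 48.7, 50.8, 47.4 and 48.9 at Day7, 39.9, 42.0, 43.5 and 41.1 at Day10, 48.1, 45.5, 48.3 and 50.5 at Day12 and 23.2, 22.2, 24.7 and 24.9 at Day14. Day3 was within the Day0 range, Day5 to Day12 above it and Day14 again within it. Col14a1 rose at Day7 (log2 fold change 1.42, SE 0.19, edgeR adjusted p = 3.74e-07). It was called higher then without either pair, at 0.95 without Day0 libraries 1 and 4 and 2.13 without libraries 2 and 3. Its call at Day3 (log2 fold change -0.51, SE 0.19, edgeR adjusted p = 0.0174) was lost without Day0 libraries 2 and 3, at 0.25 (edgeR adjusted p = 0.0624), without either of these 2 alone (-0.32 and -0.30) and without Day3 library 1, 3 or 4 (each -0.46). The ratio of Col12a1 to Col14a1 was 0.492, 0.117, 0.123 and 0.575 at Day0, 2.24, 2.17, 2.06 and 2.09 at Day3 and 2.07, 1.87, 2.04 and 1.83 at Day10. It was above every Day0 library on each wound day (exact permutation p = 0.0286, adjusted p = 0.0411) except Day12, when it averaged 0.543 (exact permutation p = 0.171, adjusted p = 0.213).

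Among the other FACIT genes, Col16a1 fell at Day3 (log2 fold change -0.93, SE 0.05, edgeR adjusted p = 1.43e-14) and rose from Day3 to Day7 (log2 fold change 1.80, SE 0.05, edgeR adjusted p = 8.49e-20), with means of 21.1 FPKM at Day0, 10.7 at Day3 and 46.0 at Day10. Col20a1 stayed between 0.623 and 1.12 FPKM in its day means, and Col9a2, Col9a3, Col19a1 and Col22a1 below 0.4 FPKM. Of these low genes Col19a1 rose at Day10 (log2 fold change 1.5, SE 0.27, edgeR adjusted p = 4.64e-05) and passed the test on no other day, except Day5 without Day0 libraries 2 and 3 (-1.04). Col22a1 was lower at Day7 and Day14 (-1.83 and -1.88), while its calls at Day3, Day5 and Day12 were lost without Day0 libraries 1 and 4 (-0.64, -1.08 and -0.61).

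The short-chain network genes Col8a1 and Col8a2, of type VIII collagen in vessel walls and corneal basement membrane, diverged. Col8a1 gave 4.75, 1.44, 1.36 and 2.75 FPKM at Day0, 5.27, 6.38, 6.42 and 6.28 at Day3 and 5.71, 5.28, 5.05 and 5.13 at Day5. After that it gave 10.7, 10.8, 9.32 and 10.6 at Day7, 11.7, 12.7, 12.7 and 12.4 at Day10, 10.3, 9.45, 11.2 and 11.3 at Day12 and 6.02, 5.41, 4.79 and 7.47 at Day14. It was above all Day0 libraries on each wound day and highest at Day10 (log2 fold change 2.21, SE 0.22, edgeR adjusted p = 4.2e-09). That rise was 3.09 without Day0 libraries 1 and 4 and 1.66 without libraries 2 and 3, both called. Col8a2 gave 2.21, 1.98, 1.79 and 2.18 FPKM at Day0, 0.201, 0.126, 0.165 and 0.172 at Day3 and 0.365, 0.274, 0.326 and 0.357 at Day5. It gave 1.19, 1.18, 1.09 and 1.22 at Day7, 2.01, 2.04, 1.77 and 1.87 at Day10, 3.87, 3.18, 3.26 and 3.46 at Day12 and 3.86, 4.01, 4.56 and 5.00 at Day14. It was below all Day0 libraries up to Day7, overlapped them at Day10 and was above them at Day12 and Day14. Its fall at Day3 was the largest of the class by the same rule (-3.56 (SE 0.13, edgeR adjusted p = 1.4e-18)), and it rose from Day7 to Day14 (log2 fold change 1.78, SE 0.11, edgeR adjusted p = 8.97e-14), as did Col11a1, to end above Day0 (log2 fold change 0.97, SE 0.11, edgeR adjusted p = 6.85e-09).

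Col17a1, the hemidesmosome collagen of basal keratinocytes, was the most abundant transmembrane collagen and was lower on every wound day. It measured 133, 77.2, 79.1 and 172 FPKM at Day0, 47.5, 38.2, 35.3 and 35.1 at Day3 and 44.5, 42.6, 45.2 and 33.6 at Day5. It measured 42.1, 45.6, 43.1 and 40.5 at Day7, 65.4, 64.4, 58.5 and 69.4 at Day10, 66.9, 68.5, 69.7 and 67.4 at Day12 and 58.4, 60.4, 68.5 and 66.0 at Day14. All wound-day libraries lay below all Day0 libraries, and libraries 1 and 4 of Day0, those with more keratinocyte RNA, were the highest. The fall was -1.51 (SE 0.16, edgeR adjusted p = 4.72e-09) at Day3 and -0.99 (SE 0.16, edgeR adjusted p = 5.45e-06) at Day14. These falls were -0.94 and -0.42 without Day0 libraries 1 and 4, still called. The Day14 fall was -0.66 without Day0 library 4 alone. Of the 7 keratinocyte markers, 5 fell at Day3 and none rose, Krt15 (a keratin of basal cells) falling most at -3.46 (SE 0.11, edgeR adjusted p = 6.5e-20), with a summed FPKM of 1580 to 2000 (2 rose and 4 fell without Day0 libraries 1 and 4, and of all genes 31.8% rose and 34.8% fell), and their part in the Col17a1 result was not tested.

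Of the remaining transmembrane genes, Col13a1, found at cell contacts and neuromuscular junctions, stood at means of 0.335 to 0.402 FPKM on every day but Day10, when it was at 1.07 and passed the test (log2 fold change 1.62, SE 0.17, edgeR adjusted p = 6.26e-09). Col23a1 was lower at Day5 and Day14 (-0.63 and -1.13), while its call at Day10 (higher, 0.38) was lost without Day0 libraries 2 and 3 (0.12) and that at Day12 (lower, -0.44) without libraries 1 and 4 (-0.13). Col25a1, at most 0.149 FPKM in its day means, fell at Day3 (-3.37) and rose at Day10 (2.79), the fall not being called by limma on log2(FPKM + 1). Col26a1 went from a mean of 0.0928 FPKM at Day0 to 1.29 at Day10 (log2 fold change 3.74, SE 0.31, edgeR adjusted p = 1.11e-10). Col28a1, known from peripheral nerve, was lower at Day3, Day5 and Day7, with log2 fold changes of -1.39, -1.51 and -1.49. They were -0.71, -0.84 and -0.81 without Day0 libraries 1 and 4, still called. Its calls at Day10, Day12 and Day14 were lost without that pair (-0.22 to 0.13). The Day10 call was lost also without Day0 library 1 (-0.37), Day0 library 4 (-0.32) or Day10 library 4 (-0.49). All 5 Schwann cell markers fell on all 6 days, where 24.8% to 34.8% of all genes fell, and 4 of the 5 at Day10 and Day14 without Day0 libraries 1 and 4. They went from a summed FPKM of 148 to 282 at Day0 to 31.6 to 34.9 at Day3, and their part in the Col28a1 result was not tested.

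For the genes that set the courses apart, the 130 bases before the start site are shown from RefSeq (GRCm38.p6, plus strand for all). They are Col3a1 (chr1:45311408-45311537) and Col5a1 (chr2:27886295-27886424), which fell from Day7 to Day14, Col11a1 (chr3:114030410-114030539), which rose, and Col7a1 (chr9:108953456-108953585), which peaked at Day10. Capitals mark the TATA box letters TATAAA, the GC box letters GGGCGG and the CCAAT box letters, each searched on both strands, so that a CCAAT on the minus strand reads ATTGG. No match of one motif overlaps a match of another.
Col3a1: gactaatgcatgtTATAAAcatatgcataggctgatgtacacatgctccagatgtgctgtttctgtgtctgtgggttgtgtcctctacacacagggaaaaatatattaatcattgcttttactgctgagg
Col5a1: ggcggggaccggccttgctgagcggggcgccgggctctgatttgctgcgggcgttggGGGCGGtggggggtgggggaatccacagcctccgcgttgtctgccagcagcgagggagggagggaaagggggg
Col11a1: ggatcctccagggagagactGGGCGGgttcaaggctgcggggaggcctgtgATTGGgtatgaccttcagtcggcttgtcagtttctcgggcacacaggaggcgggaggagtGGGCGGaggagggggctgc
Col7a1: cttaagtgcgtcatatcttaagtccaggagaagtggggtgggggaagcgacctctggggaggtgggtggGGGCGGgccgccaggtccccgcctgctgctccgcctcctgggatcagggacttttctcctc
Col3a1 held TATAAA 117 bases before its start, Col5a1 and Col7a1 each held 1 GGGCGG, 73 and 61 bases before the start, and Col11a1 held 2 GGGCGG and 1 ATTGG, the last 79 bases before its start. In the 250 bases before each start, RefSeq gave 38 windows for 35 of the 44 genes, of which 22 held GGGCGG, against 32.7% of all 32851 promoters, 13 held CCAAT, against 33.8%, and 5 held TATAAA, against 12.4%. These are letters in a window and say nothing of a factor bound there.

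Many of the genes that make and finish collagen were already higher at Day3. Beside the counts below, 31.8% of all genes tested rose and 34.8% fell at Day3, 29.0% and 30.6% at Day5, 25.6% and 24.8% at Day7, 23.5% and 26.9% at Day10, 21.7% and 25.6% at Day12 and 28.2% and 34.5% at Day14, and 33.7% fell from Day7 to Day14. Of 17 chaperones and modifying enzymes, which hydroxylate and fold the chains in the endoplasmic reticulum, 11 rose and 2 fell at Day3, 15 rose and 2 fell at Day5, 15 rose and 1 fell at Day7, 13 rose and 1 fell at Day10, 6 rose and 2 fell at Day12, and 2 rose and 8 fell at Day14. P4ha3, a subunit of prolyl 4-hydroxylase, rose most, by a log2 fold change of 4.11 (SE 0.34, edgeR adjusted p = 8.56e-11) at Day10, while the rise of Plod2, a lysyl hydroxylase, at Day3 was 3.14 (SE 0.11, edgeR adjusted p = 1.34e-19). The largest fall against Day0 was that of P4ha2, another prolyl 4-hydroxylase subunit, -1.10 (SE 0.15, edgeR adjusted p = 6.01e-07) at Day14. From Day7 to Day14, 16 of the 17 fell and none rose. At Day3, Day12 and Day14 the counts were 10 and 5, 5 and 7, and 2 and 9 without Day0 libraries 1 and 4, and 15 and 1, 8 and 1, and 5 and 7 without libraries 2 and 3. The P4ha3 rise at Day10 was 6.21 without Day0 libraries 1 and 4 and 3.27 without libraries 2 and 3, and the P4ha2 fall at Day14 was -1.5 without Day0 libraries 1 and 4 and -0.47 without libraries 2 and 3. The median log2 fold change of the 17 was 0.54 at Day3, 0.52 at Day10 and -0.26 at Day14, beside -0.03, -0.02 and -0.06 over all genes. Of 12 tested genes of procollagen processing and crosslinking, 6 rose and 2 fell at Day3, 7 rose and 1 fell at Day10, and 1 rose and 8 fell at Day14. Loxl3, a lysyl oxidase relative that crosslinks fibrils, rose most (2.61 (SE 0.10, edgeR adjusted p = 4.22e-18) at Day5), and Pcolce2, an enhancer of procollagen C-proteinase, fell most (-3.23 (SE 0.22, edgeR adjusted p = 6.23e-13) at Day14). At Day10 and Day14 the counts were 7 and 5, and 1 and 9, without Day0 libraries 1 and 4, and 9 and 1, and 4 and 7, without libraries 2 and 3. The median of these 12 was 0.36 at Day3, 1.12 at Day10 and -0.60 at Day14.

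The receptors and enzymes that meet finished collagen were mixed, where of all genes 31.8% rose and 34.8% fell at Day3, 25.6% and 24.8% at Day7, 23.5% and 26.9% at Day10 and 28.2% and 34.5% at Day14. Of 8 tested receptor genes, 2 rose and 2 fell at Day3, 4 rose and 3 fell at Day10, and 1 rose and 4 fell at Day14. Against Day0, Itga10, an integrin subunit that binds collagen, rose most (1.91 (SE 0.21, edgeR adjusted p = 2.01e-08) at Day10), and Itga11, the main such subunit of fibroblasts, fell most (-1.44 (SE 0.15, edgeR adjusted p = 4.02e-09) at Day3). Itga11 then rose from Day3 to Day7 (2.71 (SE 0.16, edgeR adjusted p = 4.45e-14)). Of 8 tested genes of collagen cleavage, 4 rose and 3 fell at Day3, 7 rose and none fell at Day7, and none rose and 4 fell at Day14. Against Day0, Mmp8, neutrophil collagenase, rose most (6.64 (SE 0.24, edgeR adjusted p = 4.31e-19) at Day3), and Mmp9, a gelatinase, fell most (-3.63 (SE 0.30, edgeR adjusted p = 3.35e-11) at Day14). The summed FPKM of 6 leukocyte markers was 10000 to 12200 at Day3 and 652 to 728 at Day14, against 1020 to 1470 at Day0. Their part in the cleavage results was not tested. At Day3 the receptor counts were 2 and 3 without Day0 libraries 1 and 4 and 4 and 2 without libraries 2 and 3. At Day14 the cleavage counts were 2 and 4 without Day0 libraries 1 and 4, and 0 and 6 without libraries 2 and 3, and those of the receptors 1 and 4, and 1 and 2. These fits tested 18861 and 18807 genes, so a list can hold more tested genes there than the 8 given above. All 8 cleavage genes fell from Day7 to Day14, a comparison in which 21 collagen genes and 33.7% of all genes fell. Median log2 fold changes of the receptors were -0.05 at Day3 and -0.12 at Day14, and of the cleavage genes 0.72 and -0.66, beside -0.03 and -0.06 over all genes.

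Markers of the cells that make fibrillar collagen moved with it in part, beside the same shares of all genes (31.8% higher and 34.8% lower at Day3, 25.6% and 24.8% at Day7, 23.5% and 26.9% at Day10, 21.7% and 25.6% at Day12, 28.2% and 34.5% at Day14, and 33.7% lower from Day7 to Day14). Of 8 dermal fibroblast markers, 2 rose and 6 fell at Day3, 5 rose and none fell at Day7, 4 rose and 2 fell at Day10, and 1 rose and 7 fell at Day14, and all 8 fell from Day7 to Day14. Their summed FPKM was 1550 to 1870 at Day3, 2660 to 2770 at Day7, 2130 to 2230 at Day10 and 1060 to 1200 at Day14, against 1240 to 4180 at Day0. These counts depended on the Day0 pairs, being 2 and 6 at Day3, 3 and 3 at Day7, 3 and 4 at Day10 and 0 and 7 at Day14 without libraries 1 and 4, and 5 and 1, 8 and 0, 6 and 1, and 1 and 4 without libraries 2 and 3. Their median log2 fold change was -0.44 at Day3, 0.46 at Day7, 0.24 at Day10 and -0.93 at Day14, beside -0.03, 0.00, -0.02 and -0.06 over all genes. Against Day0, Mfap5, a microfibril component, rose most at 1.12 (Day10) and Dcn, decorin, fell most at -1.80 (Day14). Of 6 myofibroblast markers, none rose and 4 fell at Day3, 4 rose and 1 fell at Day7, and 3 rose and 1 fell at each of Day10, Day12 and Day14. Without libraries 1 and 4 these counts were 1 and 4 at Day3, 5 and 1 at Day7, 5 and 0 at Day10, 5 and 1 at Day12 and 4 and 2 at Day14, and without libraries 2 and 3 they were 1 and 4, 3 and 2, 3 and 3, 3 and 2, and 4 and 1. Their median was -0.83 at Day3, 1.49 at Day7, 1.40 at Day10 and 0.57 at Day14. Against Day0, Postn, periostin, rose most (4.00 (SE 0.13, edgeR adjusted p = 8.49e-19) at Day10) and Cnn1, calponin, fell most (-2.12 (SE 0.17, edgeR adjusted p = 1.52e-11) at Day3). The summed FPKM of the 6 was 245 to 262 at Day3, 2060 to 2160 at Day10 and 852 to 951 at Day14 against 295 to 447 at Day0. None of these 14 markers was at 0 in any library, and their part in the collagen results was not tested.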

How the data were processed

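RNA was extracted with TRIzol and made into libraries with the VAHTS Universal V6 kit, per the labels. The authors deposited 1 table of raw read counts per gene and 1 table of FPKM values, each with 28 sample columns. The submitters' processing notes name fastp, R 3.2.0 and mm10, while the aligner, counter, annotation and strand setting are not given in the sources used here. Totals were 36706513 to 40655764 counts per library, so sampling error is small for the abundant collagens and large for the sparsest. The deposited FPKM were used as levels and in ratios, with 0.01 FPKM added to each side. The counts were fitted in edgeR 4.0.16 (R 4.3.3) with TMM scaling, the expression filter by day and all 28 libraries in 1 quasi-likelihood fit with 21 residual degrees of freedom, in which all days share 1 trend of the dispersion. The study's own test was DESeq2 with a log2 fold change over 1.5 and P under 0.05. Its thresholds on the edgeR fit, DESeq2 1.42.0 at the adjusted p used here, limma 3.58.1 and other scalings and filters were alternatives. Ratios were compared by exact permutation (scipy 1.17.1). Genes given by library were 15 chosen collagens plus, per class, the largest called rise and fall against Day0 among genes reaching a mean of 1 FPKM on some day, and from other lists the largest rise and fall. The members and lists were chosen with earlier results of these data known. Gene positions and start sites came from GENCODE and RefSeq for GRCm38.p6, the patch release of the mm10 build, and exon overlaps were not corrected for.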

Additional observations from a re-analysis of the deposited data

Results flagged for a closer look

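Of 133 sets of 4 libraries, 15 held 1 library far from the other 3 by Dixon's test, where chance gives about 1 in 20, or 7. Of the 15, 6 were in library 4 of Day5 or Day7, all low, with levels here and below in FPKM: Col4a2 at Day5 (102.1, others 120.6 to 123.5), Col6a3 at Day5 (63.61, others 101.2 to 107.5) and Day7 (116.0, others 144.2 to 148.8), Col12a1 at Day5 (25.55, others 41.31 to 44.68), Col18a1 at Day5 (26.64, others 32.0 to 32.38) and Col24a1 at Day5 (0.9195, others 1.151 to 1.203). These are the libraries in which long genes were low, by a median of -0.339 and -0.133 on the log2 scale, and Col12a1 and Col6a3, among the longest collagens, deviated by -0.719 and -0.691 at Day5.

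Library 3 of Day10 was high in Col1a1 (3116, others 2671 to 2720), Col1a2 (2827, others 2555 to 2573) and Col15a1 (56.82, others 50.57 to 51.33). Library 4 of Day12 was high in Col4a2 (87.51, others 79.8 to 80.65) and Col12a1 (27.8, others 25.43 to 25.68). The others were Col6a3 in Day0 library 4 (24.13, others 31.12 to 31.71), Col8a1 in Day3 library 1 (5.266, others 6.28 to 6.419) and Day7 library 3 (9.322, others 10.63 to 10.77), and Col11a1 in Day10 library 4 (4.259, others 4.849 to 4.954), all low.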

How the results depend on the processing

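Counts of collagen genes called higher or lower moved by over 1.5 times under few settings. With the study's thresholds (log2 fold change over 1.5, P under 0.05), put here on the edgeR fit and not on DESeq2, the higher and lower counts were 4 and 8 at Day3, 7 and 5 at Day5, 18 and 2 at Day10, 6 and 0 at Day12 and 2 and 3 at Day14, with 2 lower at Day7. Those lower at Day12 numbered 2, against 5, with limma on log2(FPKM + 1) or log2(FPKM + 0.1) and with only the libraries of the 2 days. Leaving out 1 library gave 11 to 13 higher and 17 to 21 lower at Day3, 27 to 31 and 5 to 7 at Day10, and 17 to 20 and 9 to 10 at Day14. With library totals alone the median gene shifted by 0.143 at Day12, 0.126 at Day14 and 0.123 for Day14 against Day7, and calls over all genes went from 3923 higher and 4634 lower to 6082 and 2943 at Day12, from 5109 and 6243 to 6533 and 5094 at Day14 and from 5050 and 6097 to 6378 and 4917 for Day14 against Day7, while the collagens had 25 and 4, 20 and 10, and 6 and 21. Upper quartile scaling gave 5764 and 3261 over all genes for Day7 against Day3, in place of 4670 and 4378, and 30 and 2 collagens.

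Changes of sign are given for the 19 genes shown by library, other collagens not being listed, and their cause was not tested. Without Day0 libraries 1 and 4 these were Col1a1 at Day7 (-0.031) and Day12 (-0.44), Col1a2 at Day7 (-0.31), Day10 (-0.35) and Day12 (-0.58), Col5a1 at Day3 (-0.036) and Day14 (-0.32), Col5a2 at Day14 (-0.27) and Col14a1 at Day14 (-0.22). Without libraries 2 and 3 they were Col1a1 and Col1a2 at Day5 (0.93 and 0.70), Col3a1 at Day3 (0.83) and Day14 (0.18), Col4a3 at Day3 (0.014), Day7 (0.16) and Day12 (0.64), Col7a1 at Day14 (-0.21), Col11a1 at Day5 (-0.19), Col14a1 and Col15a1 at Day3 (0.25 and 0.46), and Col4a1 for Day14 against Day7 (0.033). That Col4a1 change was also positive with DESeq2 size factors or DESeq2 (0.0032), upper quartile (0.0076), library totals (0.077), TMM without collagens (0.032), no filter (0.0049), limma (0.076) and the 2 days alone (0.025), and Col15a1 for the same days with library totals (0.026) and limma (0.024). TMM without collagens turned Col1a1 at Day5 (0.00014), Col3a1 at Day3 (0.031) and Col15a1 at Day3 (0.0049), limma turned Col1a1 at Day5 (0.16) and Col3a1 at Day3 (0.095), and at least 10 counts in every library turned Col1a2 at Day12 (-0.0012) and Col4a2 for Day14 against Day7 (-0.0025).

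With 1 library left out, log2 fold changes that crossed 0 ranged for Col1a1 from -0.28 to 0.24 (Day5) and -0.13 to 0.39 (Day12), for Col1a2 from -0.0030 to 0.57 (Day7), -0.046 to 0.52 (Day10) and -0.25 to 0.30 (Day12), for Col3a1 from -0.22 to 0.23 (Day3), for Col5a1 from -0.073 to 0.28, Col5a2 from -0.053 to 0.25 and Col7a1 from -0.051 to 0.30 (Day14), for Col11a1 from -0.020 to 0.55 (Day5), for Col15a1 from -0.15 to 0.098 (Day3), for Col17a1 from -0.019 to 0.13 (Day7 against Day3), and for Col4a1 from -0.096 to 0.028 and Col4a2 from -0.079 to 0.10 (Day14 against Day7). The Col4a1 to Col1a1 ratio ranged from -0.057 to 0.55 at Day10 and from -0.015 to 0.59 at Day12.

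The replicate numbers did not pair the samples: deviations of same-numbered libraries correlated at -0.0762 to 0.177, with 1 of 84 pairs over 0.1. A replicate block changed no count by 1.5 times (12 higher and 21 lower at Day3, 25 and 9 at Day7) and turned Col1a1 at Day5 (0.044), Col3a1 at Day3 (0.023) and Col4a2 for Day14 against Day7 (-0.00045). Under the block Col5a1 at Day3 and Col1a1 at Day7 were called higher (0.37 and 0.59, edgeR adjusted p = 0.0367 and 0.0358). DESeq2 and limma also called both, as did leaving out Day0 library 2 or 3, and DESeq2 size factors and TMM without collagens called Col5a1. With only the libraries of the 2 days, 11 calls of the 19 genes were lost at adjusted p of 0.0545 to 0.275: Col1a1 at Day10 (0.56), Col3a1 at Day5 (0.73), Day12 (0.54) and Day14 (-0.63), Col4a3 at Day7 (-1.25), Col7a1 at Day5 (0.36), Col14a1 at Day3 (-0.54) and Col15a1 at Day5 (0.45), Day7 (0.57), Day10 (0.53) and Day12 (0.46). With limma, calls were lost for Col3a1 at Day14 (-0.41) and Col14a1 at Day3 (-0.41).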
